A study of Mus musculus with 9 samples.

Results

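Retinoid signalling turns vitamin A into a ligand for nuclear receptors. The 9 genes described here stand for its steps: Stra6 for uptake, Dhrs3, Aldh1a1, Aldh1a2 and Aldh1a3 for the handling of retinaldehyde, Cyp26b1 for breakdown, and Rara, Rarb and Rarg for the receptors. They were taken by symbol from 22180 genes measured in MSC2, a clonal mesenchymal stromal line whose source was marrow of C57BL/6 mice aged 6 weeks, and each is read by 1 probe set that the annotation gives to that gene alone. The set was proposed because of the values of Dhrs3, which were high after 14 days of osteoblastic induction and in part lower again after 28 days. Dhrs3 is therefore described without a test. The other 8 genes came in by their place in the pathway, but earlier results of these data were known when they were chosen.

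The 9 arrays fall into 3 groups of 3: undifferentiated MSC2, MSC2 induced for 14 days and MSC2 induced for 28 days. Undifferentiated cells were kept in alpha-MEM without ascorbic acid, while the induced cells were brought to confluence and then held in DMEM. The additions were pyruvate at 1 mM, beta-glycerophosphate at 10 mM, ascorbate phosphate at 0.2 mM and the glucocorticoid dexamethasone at 0.1 µM. Serum was 10% in both media, and no retinoid is named as an addition to either. All groups come from this single clone, and medium, confluence and culture time differ between the undifferentiated and induced groups along with the induction, so their parts cannot be told apart. The series text calls the 3 arrays of a group independent replicates without naming separate animals. The p-values therefore rest on the spread between the arrays of a group within this clone, not between animals.

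In cells, retinol enters through receptors such as STRA6, is oxidised to retinaldehyde, and is then oxidised for good to retinoic acid by the ALDH1A enzymes. DHRS3 runs the first oxidation backwards by reducing retinaldehyde to retinol, and CYP26 enzymes hydroxylate retinoic acid and so end its action. Retinoic acid binds the receptors RARA, RARB and RARG, which sit on DNA with a retinoid X receptor at repeated hexamers. Dhrs3, Stra6, Rarb and the Cyp26 genes are known as genes that retinoic acid can itself raise, and vitamin A supply is known to affect cartilage, osteoblasts and osteoclasts in the skeleton.

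Promoter windows from RefSeq (build GRCm38.p6, 250 bases before to 50 bases after a transcription start) were listed for 8 of the 9 genes, in 18 windows, and not for Aldh1a3. The windows of Dhrs3 and Rarb are shown because Dhrs3 has the largest difference of the set and Rarb is the receptor gene that was higher in induced cells. In the Rarb window, capitals mark the receptor motifs searched for on both strands, the hexamer AGGTCA, its variant AGTTCA, another variant GGGTCA and the variant GGTTCA. In the Dhrs3 window, at the first of its 3 listed starts, capitals mark AGAACA, one arm of the palindrome that the glucocorticoid receptor is known to bind, searched for on both strands because the induction medium holds dexamethasone.
Dhrs3, chr4:144892577-144892876, + strand: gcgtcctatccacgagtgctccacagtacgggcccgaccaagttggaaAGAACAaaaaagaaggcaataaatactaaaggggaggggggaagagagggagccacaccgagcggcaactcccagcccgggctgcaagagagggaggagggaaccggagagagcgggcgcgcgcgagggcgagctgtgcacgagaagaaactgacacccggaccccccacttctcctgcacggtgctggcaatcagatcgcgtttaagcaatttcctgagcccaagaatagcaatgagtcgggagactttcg
Rarb, chr14:16575427-16575726, - strand: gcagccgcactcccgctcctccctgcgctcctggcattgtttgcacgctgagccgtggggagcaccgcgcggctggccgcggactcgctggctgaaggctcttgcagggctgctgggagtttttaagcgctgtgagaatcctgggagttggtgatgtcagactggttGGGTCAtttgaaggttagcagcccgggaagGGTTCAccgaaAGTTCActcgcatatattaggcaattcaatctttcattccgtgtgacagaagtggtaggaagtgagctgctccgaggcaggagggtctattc
The Rarb window holds 3 of these hexamers, and the last 2 lie in the same orientation with 5 bases between them, from 53 to 37 bases before the start (chr14:16575513-16575529, - strand).
Rarb repeat: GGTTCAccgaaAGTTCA
Such a repeat with a spacing of 5 was found in 32 of all 32851 windows (0.0974%), whereas 43.7% of the windows hold at least 1 of these hexamers. Among the 18 windows of the set it was found only in that of Rarb, and a repeat with a spacing of 2 (0.268% of all windows) was found in none of them. Single hexamers are not particular to Rarb: a window of Rara holds 4 and another 1, and windows of Aldh1a1, Rarg and Stra6 hold 1 each. The 3 windows of Dhrs3 hold none of the 4 hexamers, and 1 of them holds AGAACA once, a match found in 19% of all windows. Stra6 has AGAACA as well, 1 time in a window and 2 times in another. The full palindrome, AGAACA followed after 3 bases by TGTTCT, was in none of the 18 windows and in 0.00913% of all. These matches describe letters in a short window and were not tied to binding in these cells.

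Values are log2 signals from which the median of each probe set over the 9 arrays has been taken off. A value of 0 is therefore that gene's middle array, differences between groups can be read, and levels of different genes cannot be compared. Whether any of these genes, or any marker of the labelled cell type, is absent cannot be read from centred values. Among bone genes, Alpl, the alkaline phosphatase gene, was 1.41-fold higher at 14 days (limma adjusted p = 0.000896), and 1.38-fold higher at 28 days (limma adjusted p = 0.0013), calls lost when the arrays were quantile normalized once more (adjusted p = 0.0578 and 0.2), and Sp7 and Ibsp were not called in any of the 3 comparisons. Fkbp5, a glucocorticoid-responsive gene, was 2.67-fold higher at 14 days (limma adjusted p = 2.15e-08) with the direction of the values taken as deposited. All 7 measured genes of dividing cells fell at 14 and at 28 days, and their summed value ran from 14.86 to 14.99 in undifferentiated arrays, from -0.27 to 0.26 at 14 days and from -6.94 to -6.52 at 28 days. The counts of other marker lists stand beside 18.2% of all genes called higher at 14 days and 20.4% at 28 days, and 35.7% and 39.9% called in either direction. Of 6 mesothelial genes 6 were called higher at 14 days and 5 at 28 days, with sums of -7.13 to -6.79, 0.05 to 0.23 and 0.63 to 0.89 in the 3 groups. Of 6 endothelial genes 4 and 5 were higher (sums of -4.06 to -3.66, 0.21 to 0.80 and 0.17 to 0.62), and of 8 macrophage genes 3 and 3 (-5.02 to -4.07, -0.52 to 0.24 and 0.57 to 1.06), where Csf1r and Cd14 make up most of the sum and Ptprc and Adgre1 were not called. Of 10 osteoblast genes 4 were called at each time, Alpl, Pth1r and Omd higher and Col1a1 lower (sums of -2.34 to -1.96, -0.21 to 0.58 and 0.01 to 0.45). Of 7 marrow stromal genes 3 were higher and 1, Cxcl12, lower at each time (-3.23 to -2.77, 0.01 to 0.16 and 0.71 to 0.73). Nt5e (2.21 and 2.70) and Pdgfra (1.27 and 1.42) had the largest differences there, while Pdgfrb was called only at 14 days and Thy1 only at 28 days. Of 6 adipocyte genes 1 was called, Fabp4, which makes up most of the adipocyte sum (-3.85 to -3.04, -0.13 to 0.13 and -0.01 to 0.36). The called markers differed between the same groups as the retinoid genes, and their part in the retinoid genes' differences was not tested.

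**Figure D1:**
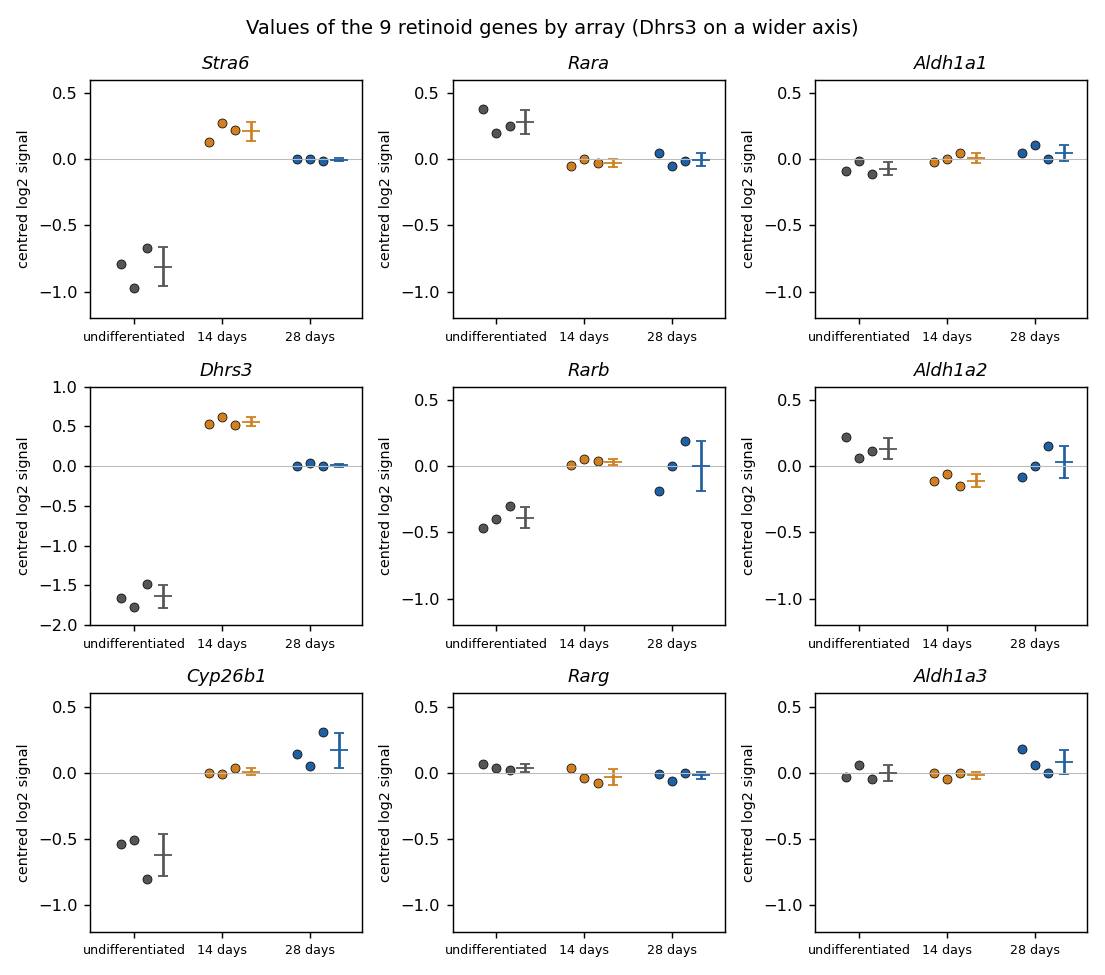
Centred log2 signal of each of the 9 genes (vertical axis) in the 3 undifferentiated, 3 14-day and 3 28-day arrays; each point is 1 array, and the bar beside it is the group mean with its SD. Dhrs3, on a wider axis, runs from -1.77 to 0.62, while all values of Aldh1a1, Aldh1a3 and Rarg lie between -0.11 and 0.18.

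Dhrs3, which reduces retinaldehyde to retinol, had by far the widest range of the 9 genes. Its values were -1.66, -1.77 and -1.48 in the undifferentiated arrays, 0.53, 0.62 and 0.51 at 14 days, and 0.00, 0.04 and 0.00 at 28 days. The 3 groups do not overlap, the undifferentiated arrays are lowest and the 14-day arrays highest. The 14-day mean lay 2.19 above the undifferentiated mean on the log2 scale, or 4.57-fold, and the 28-day mean 1.65 above it, or 3.14-fold. From 14 to 28 days Dhrs3 was lower by a log2 difference of -0.54, so that 24.8% of the 14-day difference was gone at 28 days, with a range of 23.7% to 25.5% when each array was left out. These figures chose the set and are given without a test. They depend on the scaling: quantile normalization again kept the 14-day difference at 2.07 but gave 0.85 at 28 days and a loss of 58.9%, with the order of the 3 means the same. In 2 of the 28-day arrays the value is exactly 0, so the SD of 0.02 in that group may understate its spread.

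Ordered by the 14-day difference, one of the values that chose it, Dhrs3 stood at rank 109 of the 22180 genes.

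Stra6, the membrane receptor that takes retinol from its carrier protein in blood, was the other gene of the set that differed 2-fold. It read -0.79, -0.97 and -0.67 in undifferentiated cells, 0.13, 0.27 and 0.22 at 14 days, and 0.00, 0.00 and -0.01 at 28 days. As with Dhrs3, the groups do not overlap, with the 28-day arrays between the other groups. Again 2 of the 28-day values are exactly 0, so the SD of 0.01 in that group may understate its spread. Stra6 rose by 1.02 at 14 days (SE 0.07, limma adjusted p = 1.07e-06), or 2.02-fold, and was 0.81 higher than in undifferentiated cells at 28 days (SE 0.07, limma adjusted p = 5.12e-06), or 0.44 after quantile normalization again (adjusted p = 0.016). The 28-day arrays lay below the 14-day arrays by a log2 difference of -0.21, which did not pass the test over all genes (95% interval -0.37 to -0.05, limma adjusted p = 0.121). That call turned with the settings: it was made with a further quantile normalization (-0.48, adjusted p = 0.0294), in a fit of the 14- and 28-day arrays alone (adjusted p = 0.0439) and without undifferentiated replicate 2 (adjusted p = 0.0472). The share of the 14-day difference gone at 28 days was 20.7% as deposited. It was larger with a further quantile normalization, where 0.44 of a 14-day difference of 0.92 remained at 28 days.

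The 3 genes for the enzymes that make retinoic acid differed little. Aldh1a2, the main retinoic acid synthase of the early embryo, read 0.22, 0.06 and 0.11 in undifferentiated arrays, -0.11, -0.06 and -0.15 at 14 days, and -0.08, 0.00 and 0.15 at 28 days. Its 14-day arrays lie below all undifferentiated arrays, while the 28-day arrays span both. Aldh1a2 fell by 0.24 at 14 days (SE 0.06, limma adjusted p = 0.0148), a call lost without undifferentiated replicate 1 (adjusted p = 0.0604) and without 14-day replicate 3 (adjusted p = 0.0577). At 28 days its difference was -0.10 (95% interval -0.25 to 0.04, limma adjusted p = 0.25).

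Aldh1a1, a retinaldehyde dehydrogenase also used as a marker of progenitor cells, read -0.09, -0.01 and -0.11 in undifferentiated arrays, -0.02, 0.00 and 0.05 at 14 days and 0.05, 0.11 and 0.00 at 28 days. Its 28-day arrays sit just above the undifferentiated ones, and the difference of 0.12 was not called (95% interval 0.02 to 0.23, limma adjusted p = 0.0567), although it was without undifferentiated replicate 2 (adjusted p = 0.0391) or 28-day replicate 3 (adjusted p = 0.0377). Aldh1a7, a close copy of Aldh1a1 with a probe set of its own, was not called either, and signal shared by the 2 genes cannot be told apart. Aldh1a3, the third enzyme of the family, stayed between -0.05 and 0.18 in all 9 arrays, with overlapping groups, and its 95% intervals ran from -0.13 to 0.11 at 14 days and from -0.04 to 0.20 at 28 days.

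Cyp26b1, which hydroxylates retinoic acid, was higher at both times. The undifferentiated arrays read -0.54, -0.51 and -0.80, the 14-day arrays 0.00, -0.01 and 0.04, and the 28-day arrays 0.14, 0.05 and 0.31. All induced arrays lie above all undifferentiated ones, and the 28-day arrays lie above the 14-day arrays, the opposite order to Dhrs3 and Stra6. That order is narrow, with 0.045 as the lowest 28-day value and 0.040 as the highest 14-day value. Cyp26b1 rose by 0.63 at 14 days (SE 0.09, limma adjusted p = 0.000172), or 1.54-fold, and by 0.78 at 28 days (SE 0.09, limma adjusted p = 2.76e-05), or 1.72-fold. After quantile normalization again the 14-day rise was 0.37 (adjusted p = 0.0116). The further 0.15 from 14 to 28 days was not called (95% interval -0.04 to 0.35, limma adjusted p = 0.36).

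Of the 3 receptor genes, Rarb was called higher, Rara lower and Rarg not called. Rarb, whose promoter carries the repeat shown above, read -0.47, -0.40 and -0.30 in undifferentiated cells, 0.01, 0.05 and 0.04 at 14 days, and -0.19, 0.00 and 0.19 at 28 days. The induced arrays all lie above the undifferentiated ones, and the 28-day arrays scatter most, on both sides of the 14-day arrays. Rarb rose by 0.42 at 14 days (SE 0.08, limma adjusted p = 0.00221) and by 0.39 at 28 days (SE 0.08, limma adjusted p = 0.0033), or 1.34-fold and 1.31-fold. Neither call held with a further quantile normalization (0.31 with adjusted p = 0.0501, and 0.23 with adjusted p = 0.138).

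Rara, the most widely expressed of the receptors, went down: 0.38, 0.20 and 0.25 in undifferentiated arrays stood against -0.05, 0.00 and -0.03 at 14 days and 0.05, -0.05 and -0.01 at 28 days. The undifferentiated arrays lie above all others, and the induced groups overlap. Rara fell by 0.31 at 14 days (SE 0.05, limma adjusted p = 0.000873) and by 0.28 at 28 days (SE 0.05, limma adjusted p = 0.00136), so that undifferentiated cells held 1.24-fold and 1.22-fold more. Rarg, known for its part in cartilage and limb formation, read between -0.08 and 0.07 on every array, and its differences of -0.07 and -0.06 were not called (95% interval -0.16 to 0.03 at both times, limma adjusted p = 0.279 and 0.286).

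**Figure D2:**
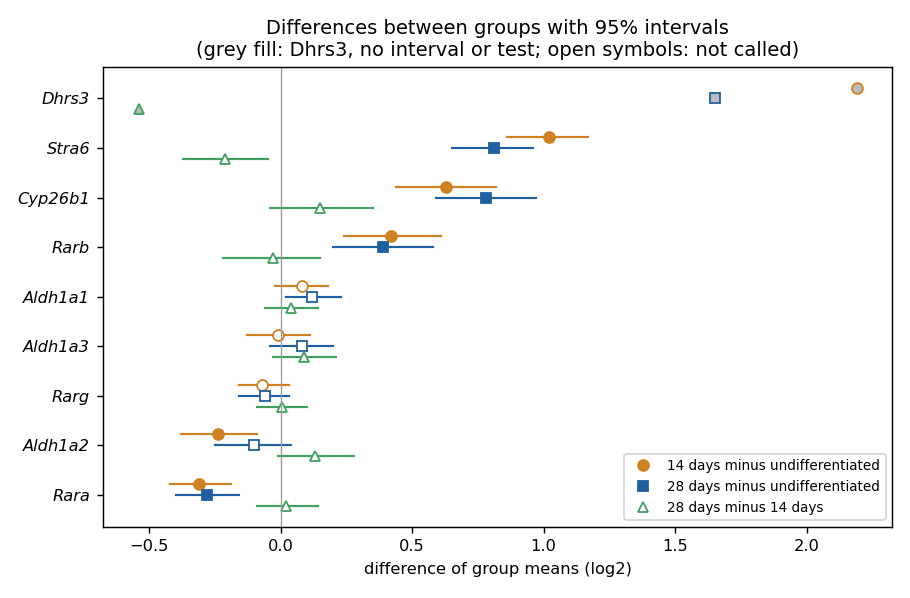
Difference of group means on the log2 scale (horizontal axis) for each gene and comparison, with 95% intervals from the limma fit as lines and filled symbols where the adjusted p is under 0.05; Dhrs3 has grey symbols, without interval or test. Stra6, Cyp26b1 and Rarb lie to the right of 0 and Rara to the left at both times, and no tested gene was called between 14 and 28 days.

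Counted together, 5 of the other 8 genes were called at 14 days, 3 higher and 2 lower, beside 35.7% of all genes (18.2% higher and 17.5% lower); 1 of them, Stra6, was past 2-fold, beside 4.71% of all genes. At 28 days 4 were called, 3 higher and 1 lower, beside 39.9% of all genes (20.4% higher and 19.5% lower), with none of the 8 past 2-fold, beside 6.19%. Between 14 and 28 days none was called by limma, beside 7.39% of all genes (2.72% higher and 4.67% lower) and 0.108% past 2-fold, and 1 of the 8, Stra6, had an unadjusted p under 0.05. The arrays of the 2 groups did not overlap for 5 of the 8 genes at 14 days, 6 at 28 days and 2 between these times, beside 44.8%, 46.6% and 24.4% of all genes. The count of calls between 14 and 28 days rests in part on single arrays, with 1639 genes called in all, 991 without 14-day replicate 1 and 1017 without 14-day replicate 2. The set was chosen on these comparisons, so nothing is read from these shares, and the 14- and 28-day comparisons share the undifferentiated arrays. The median difference of the 8 genes was 0.03 at 14 days and 0.10 at 28 days, beside 0.0048 and 0.02 over all genes. An F test over the 3 groups called the same 5 genes as at 14 days, Stra6, Cyp26b1, Rarb, Rara and Aldh1a2, beside 39.2% of all genes. In the test against a 1.5-fold change only the 14-day rise of Stra6 was called among the 8 (adjusted p = 0.00131).

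The rest of the pathway was followed through 65 other measured genes on 5 lists, of which 21 were called at 14 days, 8 higher and 13 lower, and 22 at 28 days, 12 higher and 10 lower (32.3% and 33.8%, beside the same 35.7% and 39.9% of all genes). Between 14 and 28 days 3 were called, all lower (4.62%), beside 7.39% of all genes called and 4.67% called lower.

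Among 15 genes of uptake, binding and storage, 2 rose and 2 fell at 14 days, and 4 rose and 2 fell at 28 days. This is 26.7% and 40% called, beside 35.7% and 39.9% of all genes. Stra6l, a relative of Stra6 that also takes up retinol from its carrier, read -0.37, -0.66 and -0.78 in undifferentiated arrays, 0.00, 0.00 and 0.16 at 14 days and 0.17, 0.36 and 0.37 at 28 days. It thus rose at 14 days (0.66, SE 0.10, limma adjusted p = 0.000403) and at 28 days (0.90, limma adjusted p = 3.29e-05), with the 28-day arrays above the 14-day arrays, unlike Stra6. The difference of 0.25 between these times was not called (limma adjusted p = 0.205), and neither was that of Stra6 in the main fit. Crabp2, which carries retinoic acid to its receptors, rose by 0.37 at 28 days (limma adjusted p = 0.000986), while its 14-day call (0.23, limma adjusted p = 0.0181) did not hold with a further quantile normalization (adjusted p = 0.206) and without any of 3 single arrays (14-day replicate 1, undifferentiated replicate 2 or 3; adjusted p = 0.0582, 0.0547 and 0.0695). Rbp4, the blood carrier of retinol, rose 1.26-fold at 28 days (limma adjusted p = 0.00237). Fabp5, which carries retinoic acid and fatty acids to PPARD, fell by 0.57 at 14 days and by 0.67 at 28 days (limma adjusted p = 9.77e-05 and 2.28e-05). The 28-day call was lost on its probe set of largest variance (-0.39, adjusted p = 0.25). Scarb1, a lipoprotein and carotenoid receptor, fell by 0.33 at 14 days and by 0.56 at 28 days (limma adjusted p = 0.000104 and 1.49e-06). Lrat, which esterifies retinol for storage, and Crabp1 were not called, with differences of -0.07 and 0.08 at 14 days.

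Of 22 retinol and retinaldehyde oxidoreductases, 3 rose and 5 fell at 14 days, and 3 rose and 4 fell at 28 days. The shares called, 36.4% and 31.8%, stand beside 35.7% and 39.9% of all genes. Adh7, an alcohol dehydrogenase that oxidises retinol, read 1.38, 1.46 and 1.25 in undifferentiated arrays, 0.00, -0.11 and 0.00 at 14 days, and -0.35, -0.31 and -0.14 at 28 days. Its groups do not overlap, and its log2 difference was -1.40 at 14 days (SE 0.07, limma adjusted p = 7.56e-08) and -1.63 at 28 days (SE 0.07, limma adjusted p = 1.79e-08), the largest difference among the 65 genes. Rdh10, the dehydrogenase that makes retinaldehyde from retinol, the step that DHRS3 reverses, read 0.51, 0.60 and 0.59 in undifferentiated arrays and between -0.06 and 0.03 in the induced ones. Rdh10 fell by 0.58 at 14 days and by 0.59 at 28 days (SE 0.04 each, limma adjusted p = 1.47e-06 and 1.08e-06), and the 28-day mean lay within -0.10 to 0.09 of the 14-day mean (95% interval). Rdh14 rose by 0.44 at 14 days and by 0.51 at 28 days, and Dhrs4, which reduces carbonyl compounds including retinaldehyde, by 0.34 and 0.40. Cyp26a1 and Cyp26c1, the other hydroxylases of the Cyp26 family, were not called at either time, with differences between -0.03 and 0.11.

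Of 10 partner receptors and cofactors, 3 rose and 2 fell at 14 days, and 4 rose and 1 fell at 28 days, all by less than 1.5-fold. This is 50% called at each time, beside 35.7% and 39.9% of all genes, and nothing is read from shares of so few genes. Ppard, the nuclear receptor that can take retinoic acid from FABP5, rose by 0.28 at both times (limma adjusted p = 0.000265 and 0.000197). Rxra, an obligate partner of the receptors, rose by 0.18 at 28 days (limma adjusted p = 0.00542), while its 14-day difference of 0.04 and its difference of 0.13 between the times were not called. Rxrg was called at 14 days (0.18, limma adjusted p = 0.0216), not after quantile normalization again (adjusted p = 0.0756) or without any of 4 single arrays (adjusted p = 0.0601 to 0.0791), and Rxrb was not called. The coactivator gene Ncoa3 rose by 0.27 at 14 days, and Nrip1, a corepressor gene, fell by 0.23, the latter not called after quantile normalization again (adjusted p = 0.0766).

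Of 20 genes that textbooks give as targets of retinoic acid, 1 rose and 5 fell at 14 days, and 2 rose and 4 fell at 28 days. This is 30% called at each time, beside 35.7% and 39.9% of all genes. The members Dhrs3, Stra6, Rarb and Cyp26b1, also known to be raised by retinoic acid, are not on this list. Their means were higher at both times, that of Dhrs3 by the choice of the set, and the Rarb calls did not hold with a further quantile normalization. The list does not cover all such targets, and whether retinoic acid acted on the list or on these members was not tested. Gprc5a, an orphan receptor first found through its induction by retinoic acid, read 0.73, 0.71 and 0.68 in undifferentiated arrays, -0.06, 0.00 and 0.00 at 14 days and -0.38, -0.31 and -0.20 at 28 days, so that the groups do not overlap. It fell by 0.73 at 14 days and by 1.01 at 28 days (limma adjusted p = 8.59e-07 and 5.59e-08). Meis1, a homeobox gene of the proximal limb, fell by 0.44 and 0.80 (limma adjusted p = 8.19e-05 and 7.36e-07), and Rai14 by 0.28 at 28 days. Some genes stand on 2 of the lists (Crabp2, Lrat, Cyp26a1 and Nrip1), and of these Crabp2 is the gene that rose on the target list at 14 days, joined at 28 days by Cebpe (0.17, limma adjusted p = 0.0205), a call lost with a further quantile normalization (adjusted p = 0.0984) and without undifferentiated replicate 1, undifferentiated replicate 2 or 28-day replicate 2 (adjusted p = 0.0575, 0.0714 and 0.0743). The Hox genes on the list, Hoxb1, Hoxa4, Hoxb4 and Hoxb5, were not called in any comparison.

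**Figure D3:**
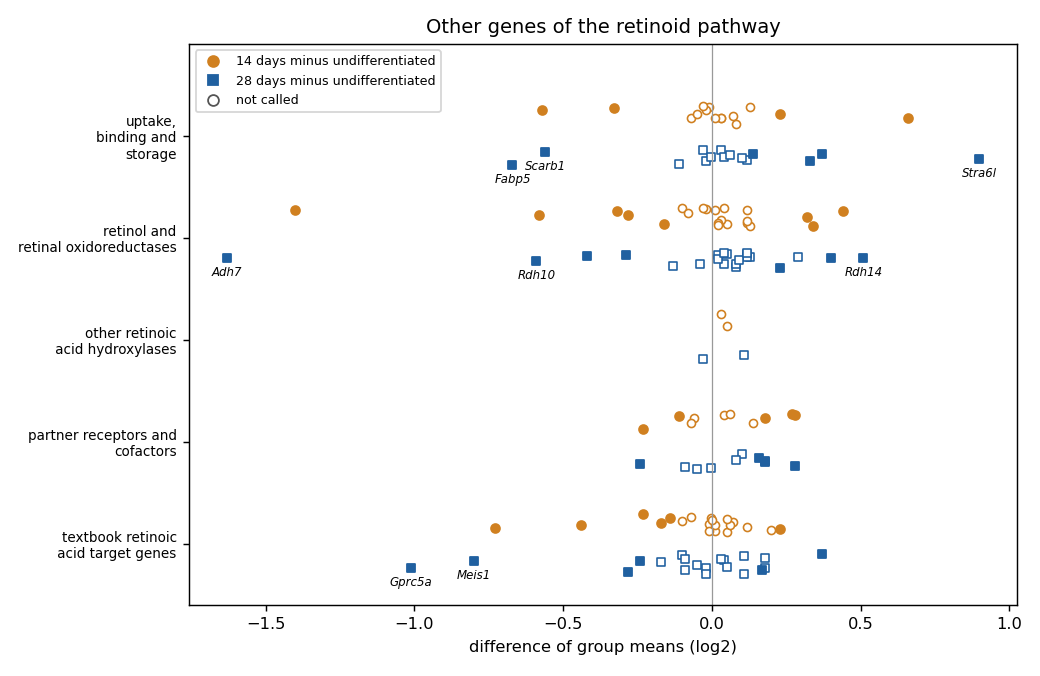
Difference from undifferentiated cells on the log2 scale (horizontal axis) at 14 days (circles) and 28 days (squares) for the other genes of the retinoid pathway, by list; filled symbols are called at an adjusted p under 0.05 and names mark called genes past 0.5 at 28 days. Most genes lie near 0, Adh7 reaches -1.63 at 28 days, and Stra6l stands highest at 0.90.

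The genes whose pattern over the 9 arrays was most like that of Dhrs3 were Slc35a5, which encodes a nucleotide sugar transporter, Mfsd11, Napepld, which encodes the enzyme that makes N-acylethanolamines, Cspg4, the NG2 proteoglycan gene of pericytes, and Itga11, which encodes a collagen-binding integrin subunit. Their Pearson correlations with Dhrs3 were 0.999, 0.997, 0.995, 0.994 and 0.994, among 1429 genes whose group means span at least 1. Their 14-day differences were smaller, from 1.04 for Mfsd11 to 1.40 for Napepld, and each was lower at 28 days than at 14, by log2 differences of -0.22 to -0.36. Picked for likeness to Dhrs3, they share this rise and partial fall by selection. The genes most opposite to Dhrs3 were Ccn1, a matricellular protein gene, with -0.999, Tnc, which encodes tenascin C, with -0.991, and Ldb3, Ereg and Nanos1 with -0.989 to -0.984. Tnc was 2.20 lower at 14 days than in undifferentiated cells and 0.37 of this was regained by 28 days. Correlations of this size were common, since 59.7% of the 1429 genes reached 0.9 in size, and the arrays share the step from undifferentiated to induced cells. The order is not stable either: 1 of the 5 genes stayed among the first 5 by Spearman correlation and 2 with a minimum span of 0.5.

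**Figure D4:**
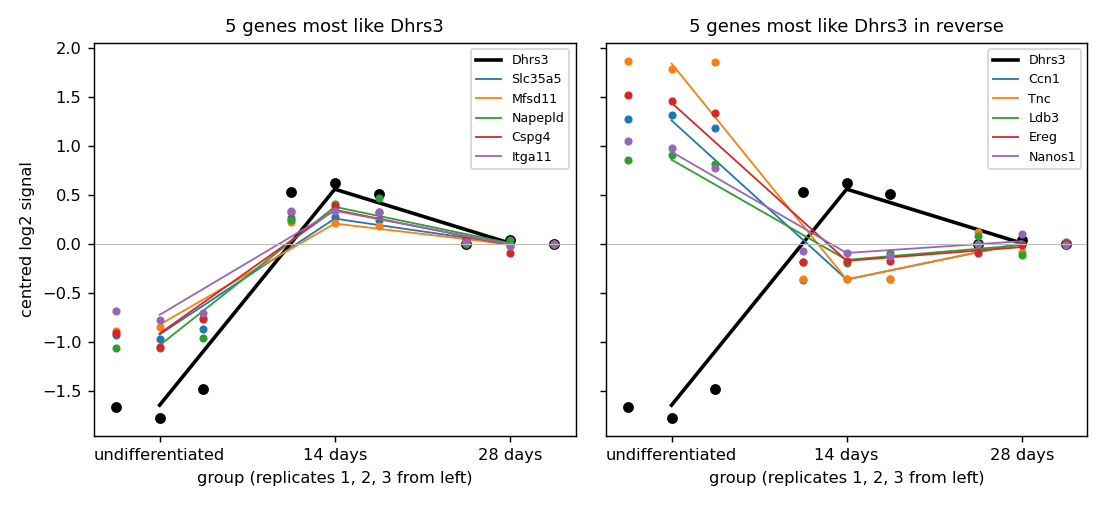
Centred log2 signal (vertical axis) of Dhrs3 in black and of the 5 genes most like it (left) or most opposite to it (right); points are the 9 arrays and lines join the group means. The like genes are highest at 14 days and span less than Dhrs3. At 28 days they lie near 0, the median over the arrays, and well above their undifferentiated values.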

How the data were processed

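MSC2 RNA was measured on 9 biotin-labelled arrays. Per the labels' processing notes, the authors used RMA; the sources used here do not give the program or the annotation. The deposited values are taken as log2 because RMA works in log2. All 33794 probe sets have a median of 0 over the arrays, so the deposited values are centred, by a step that no source used here records; each array's median is 0 as well, and direction was assumed. Each array has 15.2% to 28.1% of values at exactly 0.

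Of the probe sets 23521 have 1 gene, 1814 several and 8459 none; those with 1 gene were averaged per gene, 22180 in all (23328 matched RefSeq GRCm38.p6 by Entrez number). limma 3.58.1 (R 4.3.3) fitted 1 mean per group with variances moderated across genes (degrees of freedom 6 residual, 3.81 prior), with Benjamini-Hochberg adjustment over all genes; called means an adjusted p under 0.05. Intervals are unadjusted 95% intervals from the fit. The fit was tested on simulated data. No array is a copy of another.

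Members and lists were chosen with earlier results of these data known. Named are the members, a fixed set of pathway genes, up to 4 called genes per list and comparison, and the 5 genes most like Dhrs3 and the 5 most opposite; Aldh1a7, Cyp26c1, the Hox genes, Sp7, Ibsp and other marker, Aldh and Dhrs genes were named after their values were seen. The number of arrays limits the precision. Alternatives were quantile normalization again, a replicate block, other probe set rules, a robust prior, fits of the compared groups alone, a test against a 1.5-fold change, a stricter threshold and leaving out each array. No filter on low values was possible, since centred values keep no level.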

Additional observations from a re-analysis of the deposited data

Results flagged for a closer look

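Among the 8 tested genes of the set, the 65 pathway genes, Mki67, Fkbp5 and Alpl, 4 genes had a 28-day difference from undifferentiated cells that differed from their 14-day one, by the test of 28 minus 14 days, beside 1639 of all 22180 genes. Scarb1 was lower at 28 than at 14 days by a log2 difference of -0.23 (limma adjusted p = 0.00839), Meis1 by -0.36 (limma adjusted p = 0.00339), Gprc5a by -0.28 (limma adjusted p = 0.0074) and Mki67, a marker of dividing cells, by -0.95 (limma adjusted p = 3e-06). In each the 3 arrays at 28 days lie below the 3 at 14 days. The 8 tested genes of the set were not among them.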

How the results depend on the processing

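When a change beyond 1.5-fold was required, calls numbered 1582 at 14 days, 2010 at 28 days and 28 between these times, of the other 8 genes 1 at 14 days and 0 at 28 days, and of the 65 pathway genes 1, 3 and 0 in the 3 comparisons. At an adjusted p under 0.01, 813 genes were called between 14 and 28 days. Quantile normalization again gave 5818 called genes at 14 days, against 7920 in the main fit. With it, 1 of the 8 genes and 5 of the pathway genes were called between 14 and 28 days. Dhrs3 then stood at 0.85 for 28 days against undifferentiated cells and at -1.22 for 28 against 14 days, a loss of 58.9%. The cause was not tested. In a fit of the compared groups alone 1 of the 8 genes was called between 14 and 28 days. Under both settings these counts between 14 and 28 days stand without the share of all genes, so nothing is read from them. Leaving out each array gave 7115 to 7955, 8177 to 8689 and 991 to 1573 called genes in the 3 comparisons, 4 to 5, 4 to 5 and 0 to 1 of the 8 genes, 17 to 21, 19 to 24 and 3 to 4 pathway genes, and a loss for Dhrs3 of 23.7% to 25.5%. For Dhrs3 the differences then ran from 2.13 to 2.27, 1.58 to 1.73 and -0.56 to -0.51.

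Among the 8 tested genes, the 65 pathway genes, Mki67, Fkbp5 and Alpl, no called value turned direction under these alternatives, which were not run for the other single genes named (markers, genes like Dhrs3, Aldh and Dhrs relatives). Whether the replicate numbers of the titles pair the arrays cannot be decided from deviations within groups of 3. Same-numbered arrays of different groups had deviations that correlated at -0.139 to 0.068. Between 14 and 28 days these correlations were 0.015 to 0.068, beside -0.064 to 0.019 for differently numbered arrays. With the replicate block 7846, 8726 and 1390 genes were called in the 3 comparisons, the 8 genes kept all 24 calls and non-calls, and 3 calls of pathway genes were lost (Ncoa2 at 14 days, Rxrg and Rlbp1 at 28 days, adjusted p = 0.07, 0.0541 and 0.0651). All 9 genes have 1 probe set, so the probe set rules left their values as they were. Centred values keep no signal over background, so what dim probes limit is unknown.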

Other observations

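The wider enzyme families of the set, taken by the start of their symbols after the values were seen, were counted in the same way. Of 18 other Aldh genes, among them Aldh1a7 and Aldh8a1 of the lists above, 5 were called higher and 2 lower at 14 days, and 6 and 3 at 28 days (limma), beside 18.2% higher and 17.5% lower of all genes at 14 days and 20.4% and 19.5% at 28 days, shares from which nothing is read. Aldh3a1, which clears aldehydes from lipid oxidation, rose 2.72-fold at 14 days and 3.41-fold at 28 days (limma adjusted p = 1.61e-07 and 2.54e-08), and Aldh6a1, of valine breakdown, 2.18-fold and 1.97-fold (limma adjusted p = 1.34e-08 and 2.6e-08). Aldh1l2, the mitochondrial folate enzyme, was at -0.87 and -1.21 on the log2 scale, and Aldh18a1, of proline synthesis, at -0.68 and -0.82. Of 10 other Dhrs genes, Dhrs4 and Dhrs9 included, 3 were higher and 2 lower at each time. Dhrs11 rose by 0.79 at 14 days and 0.82 at 28 days (limma adjusted p = 6.28e-07 and 3.52e-07), and none of the 10 was called between these times.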
